A study of Homo sapiens with 12 samples.

Results

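The ubiquitin-specific proteases (USPs) are the largest family of human deubiquitinases. Their RNA was measured in SCC15 and SCC25 cells, established lines of human oral squamous cell carcinoma with the genotype given as WT. Cells received annonaceous acetogenins (ACGs) or the solvent DMSO for 24 h, and 3 libraries were sequenced for each of the 4 groups, SCC15 with ACGs, SCC15 with DMSO, SCC25 with ACGs and SCC25 with DMSO. The study's methods describe the agent as squamocin, one compound of the ACG class, at a dose of 10 µg/mL. Members were chosen by name and type, as protein-coding genes whose symbol is USP followed by a number. This gave 54 of the 34227 genes listed in either of the 2 deposited tables, 53 of 29657 for SCC15 and 51 of 31055 for SCC25, with 50 in both. One of them, USP6NL, carries the name of the USP6 N-terminus and is a GTPase-activating protein for Rab GTPases, without a deubiquitinase domain, so the family name holds for 53 of the 54.

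Ubiquitin is joined to proteins in chains that can send them to the proteasome, and deubiquitinases cut these chains or trim them. USPs are cysteine proteases that share a catalytic fold and differ in the domains around it, which direct each of them to its substrates, such as histones, receptors on endosomes, p53 and its ligase MDM2, or MYC. The study asked how the treatment lowers the proteins EZH2, a histone methyltransferase, and MYC, a transcription factor, and the genes described here encode enzymes that can spare such proteins from the proteasome. Only RNA was measured in these libraries, so no value below is a protein level or an enzyme activity.

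Each library held 16665563 to 22748845 reads on genes, as recovered from the deposited values, which are reads divided by 1 size factor per library and are called normalized counts here. A member was tested where its mean over the 6 libraries of a line was at least 10 normalized counts, which held for 47 members in SCC15 and 45 in SCC25, the latter all tested in both lines. The test was limma on log2(normalized count + 1), two-sided, with p adjusted over all genes of the line and a threshold of 0.05. Fold changes are on that log2 scale and understate the change of low genes. Of 6 keratinocyte markers, all 6 reached a mean of 10 normalized counts in SCC25, while 4 did in SCC15, where DSG3 had a mean of 1.4 and KRT5 of 9.5 in the DMSO libraries. SCC15 ACGs replicate 3 stood apart from its group: its counts differed from those of replicates 1 and 2 by a chi-square per degree of freedom of 71.6 and 63.5, against 1.72 to 11.02 for the other 10 pairs of replicates. It had the lowest value of its group in 31 of the 47 tested members. Results for SCC15 are therefore given without it where that changes a call, and for some members whose size it moves. Without it the SCC15 falls of USP9X, USP28 and USP37 went from -0.68, -0.91 and -1.35 to -0.49, -0.73 and -1.11, and the calls remained. No source says that replicates came from separate cultures, so p-values measure only the spread between these libraries, which may be technical.

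In SCC15, 11 of the 47 tested USP genes (23.4%) were higher and 20 (42.6%) were lower with ACGs, beside 30.9% and 30% of all 15902 genes tested. In SCC25, 18 of 45 (40%) were higher and 16 (35.6%) were lower, beside 38.3% and 38.5% of 16539 genes. The shares in SCC25 were therefore near those of all genes, and SCC15 held more falling and fewer rising members than the background. The median log2 fold change over the members was -0.23 in SCC15 against 0.01 over all genes, and 0.03 in SCC25 against -0.01. This background was not matched for gene span, by which medians are split below. Without SCC15 ACGs replicate 3, 14 members were higher and 26 lower in SCC15, beside 38% and 37.6% of all genes in that fit, and the median was -0.19. The groups of 3 libraries did not overlap for 11 members that were higher and 25 that were lower in SCC15, beside 35.7% and 34.9% of all genes, and for 18 and 16 in SCC25, beside 39.4% and 39.6%.

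**Figure D1:**
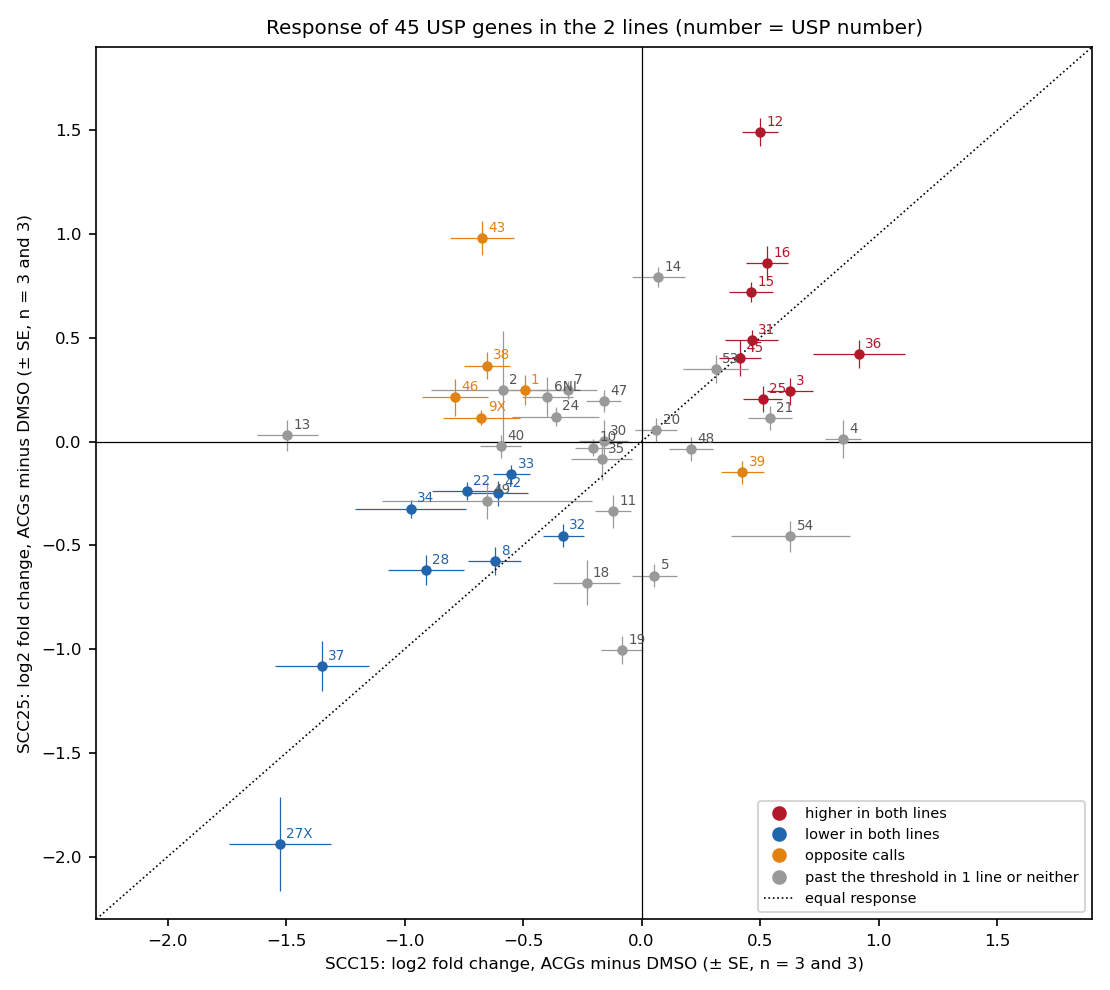
Log2 fold change (ACGs minus DMSO, mean ± SE from limma, 3 against 3 libraries) of the 45 USP genes tested in both lines, SCC15 on the horizontal and SCC25 on the vertical axis, with the USP number beside each point. USP27X lies at the lower left (-1.53 and -1.94), USP12 at the top (0.50 and 1.49), and USP43 far from the dotted line of equal response (-0.67 and 0.98).

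These directions are relative to the middle of the transcriptome. The authors' size factors left the sum of normalized counts at 15466464 to 15535484 in SCC15 with DMSO and at 20467856 to 24626253 with ACGs, and scaling every library to the same total instead moved the median of all genes to -0.50 in SCC15 and -0.23 in SCC25. On that scale 1 member (USP4) was higher and 32 were lower in SCC15, beside 14.6% and 51% of all genes, and 9 were higher and 23 lower in SCC25, beside 30.2% and 47.6%. This scaling shifts all genes of a library together, so places relative to the median gene are nearly fixed by construction: the median member lay 0.24 below it in SCC15 by the authors' scaling and 0.23 below it at equal totals, and all 31 members past the threshold in SCC15 and all 34 in SCC25 stayed on their side of the median gene. Of the called members, the sign itself turned at equal totals for USP15, USP31, USP39 and USP45 in SCC15 and for USP9X, USP24, USP25 and USP47 in SCC25. Higher and lower therefore stand below for changes against the median gene.

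**Figure D2:**
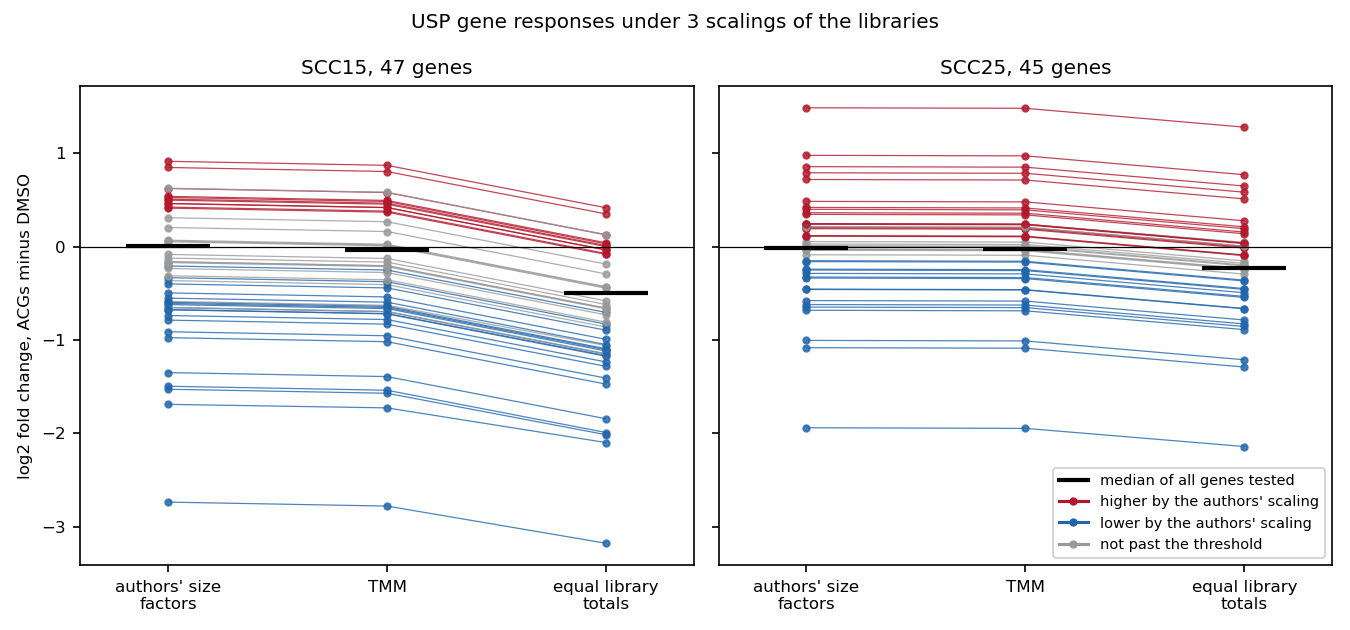
Log2 fold change of each tested USP gene (1 line per gene) by the authors' size factors, TMM factors and equal library totals, in SCC15 (47 genes) and SCC25 (45 genes), coloured by the call under the authors' scaling, with the median of all genes as a black bar. The whole set shifts down with the bar at equal totals, to a bar at -0.50 in SCC15 and -0.23 in SCC25, while the order of the genes changes little.

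Among the 45 members tested in both lines, 8 were higher in both (USP3, USP12, USP15, USP16, USP25, USP31, USP36 and USP45), beside 22.1% of the 14454 genes tested in both. Another 9 were lower in both (USP8, USP22, USP27X, USP28, USP32, USP33, USP34, USP37 and USP42), beside 18.6%. These 17 genes kept their calls with edgeR, beside 21.3% and 20% of all genes higher and lower in both, and with DESeq2, beside 22.1% and 18.5%, on the recovered reads. At equal library totals 19 members were lower in both, these 9 among them, beside 32.6%, while none of the 8 higher genes passed in both lines, beside 10.5%. The 2 lines share no library, so each line gives its own measurement of these genes.

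USP12, which works bound to the WD-repeat protein UAF1, had the largest rise of the family in SCC25. It had 1004, 937 and 938 normalized counts in the DMSO libraries and 2769.5, 2921 and 2422 in the ACGs libraries of SCC25 (log2 fold change 1.49 ± 0.07 (SE), adjusted p = 5.97e-10). In SCC15 it had 947, 959.8 and 961 with DMSO and 1401, 1302 and 1355 with ACGs (log2 fold change 0.50 ± 0.08 (SE), adjusted p = 0.00118). Libraries of both lines were separated by treatment, and the rise in SCC25 exceeded that in SCC15 by the test of the difference (SCC15 minus SCC25 -0.99 ± 0.11 (SE), adjusted p = 8.73e-06).

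USP16, a deubiquitinase of histone H2A in mitosis and differentiation, had 655, 646 and 599.7 with DMSO and 908, 864 and 973 with ACGs in SCC15, and 694, 747 and 703 with DMSO and 1318, 1468 and 1125 with ACGs in SCC25. Its log2 fold changes were 0.53 ± 0.09 and 0.86 ± 0.08 (SE), with adjusted p = 0.00175 and 9.34e-07 by limma. USP45, its closest relative, moved by 0.41 and 0.40 (adjusted p = 0.00521 and 0.000857). USP3, another histone H2A deubiquitinase, moved by 0.62 and 0.24 (adjusted p = 0.0012 and 0.00435).

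USP36, a nucleolar enzyme known to stabilise MYC, had the largest rise of the family in SCC15, from 1037, 1031 and 1020.5 with DMSO to 2506, 2084 and 1406 with ACGs (log2 fold change 0.92 ± 0.19 (SE), adjusted p = 0.005). Replicate 3 was the lowest of its ACGs libraries, and without it the value was 1.15. The same gene had 1194, 1043 and 1068 with DMSO and 1520.1, 1352 and 1559 with ACGs in SCC25 (log2 fold change 0.42 ± 0.07 (SE), adjusted p = 9.85e-05), and the responses of the lines were not told apart (difference 0.49 ± 0.22 (SE), adjusted p = 0.0775), although without SCC15 ACGs replicate 3 the difference passed, at 0.73.

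USP15, which acts on SMADs and receptors of the TGF-beta pathway, had log2 fold changes of 0.46 ± 0.09 and 0.72 ± 0.05 (SE) in SCC15 and SCC25. USP25, a relative of USP28 that can act at the endoplasmic reticulum, rose by 0.51 and 0.20, the second of which missed the threshold without SCC25 DMSO replicate 1. The last of the 8, USP31, moved by 0.46 and 0.49, about alike in the lines (difference -0.02 ± 0.12 (SE), adjusted p = 0.889).

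**Figure D3:**
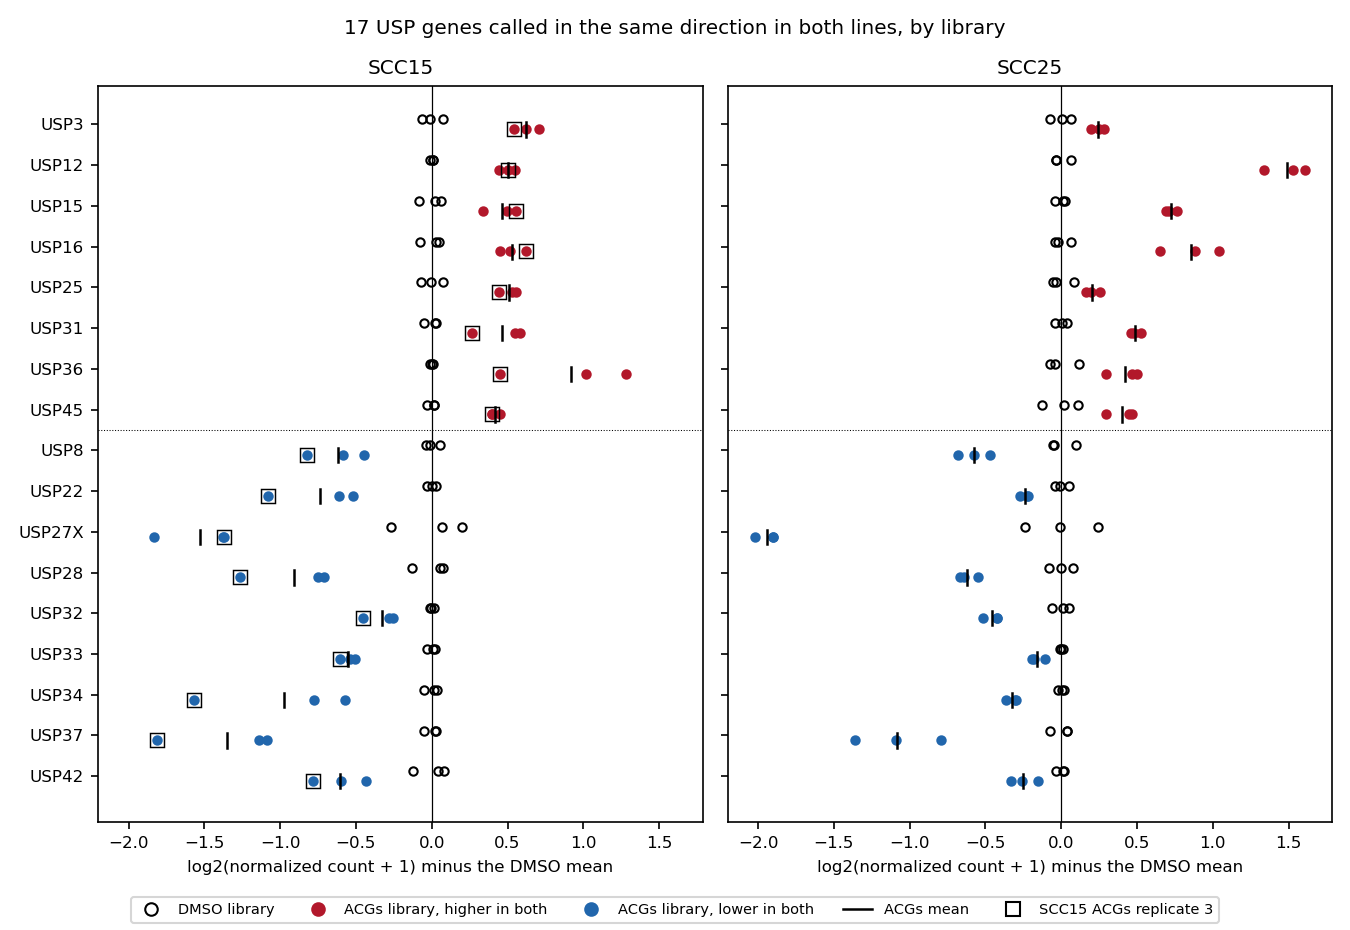
Log2(normalized count + 1) minus the DMSO mean in each library for the 8 USP genes called higher (upper rows) and the 9 called lower (lower rows) in both lines, with DMSO libraries as open circles, ACGs libraries as filled circles, their mean as a bar and SCC15 ACGs replicate 3 in a square. The ACGs and DMSO circles do not overlap in any row, and the squared library lies lowest of its group for USP34, USP37, USP28 and USP22.

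USP27X, an X-linked relative of USP22, fell most of the 17 in both lines. Its values were 75.9, 96.5 and 106 with DMSO and 34.8, 25.1 and 34.8 with ACGs in SCC15 (log2 fold change -1.53 ± 0.22 (SE), adjusted p = 0.000809), and 64.5, 54.9 and 77.0 with DMSO and 15.3, 16.6 and 16.7 with ACGs in SCC25 (log2 fold change -1.94 ± 0.23 (SE), adjusted p = 5.59e-06). In both lines the highest ACGs library lay below the lowest DMSO library by more than the range of either group. It is also among the least abundant of the called members, so its counting error is larger than that of the genes below.

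USP37, which acts in S phase and on MYC, had 319, 336 and 338 with DMSO and 155, 149 and 93.3 with ACGs in SCC15 (log2 fold change -1.35 ± 0.20 (SE), adjusted p = 0.000968). In SCC25 it had 543, 503 and 544 with DMSO and 206, 305 and 249 with ACGs (log2 fold change -1.08 ± 0.12 (SE), adjusted p = 3.11e-06). It was the only member besides USP27X to fall by more than 1 on the log2 scale in both lines. USP28, a nuclear enzyme known to stabilise MYC, had 681, 783 and 773 with DMSO and 454, 441 and 309 with ACGs in SCC15 and 613, 648 and 579 with DMSO and 385, 393 and 419 with ACGs in SCC25, with log2 fold changes of -0.91 ± 0.16 and -0.62 ± 0.07 (SE) and adjusted p = 0.00214 and 4.59e-06.

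USP22, the catalytic subunit of the SAGA deubiquitinase module, which removes ubiquitin from histone H2B, had 3464, 3401 and 3327 with DMSO and 2372, 2223 and 1608 with ACGs in SCC15. In SCC25 its values were 3299, 3425 and 3211 with DMSO and 2838, 2745 and 2831 with ACGs. The fall was -0.74 ± 0.15 against -0.24 ± 0.04 (SE) on the log2 scale and differed between the lines (-0.50 ± 0.16 (SE), adjusted p = 0.0191). SCC15 ACGs replicate 3 was its lowest library, and without that library the difference was -0.33.

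USP34, a very large enzyme that acts on axin in WNT signalling, had log2 fold changes of -0.97 in SCC15 and -0.32 in SCC25. Its SCC15 ACGs libraries spread from 654 to 1305 normalized counts, and without replicate 3 the difference between lines went from -0.65 to -0.35. USP8, which acts on receptors at endosomes, fell by nearly the same amount in the lines, -0.62 ± 0.11 and -0.58 ± 0.07 (SE). USP33, which acts at the endoplasmic reticulum and Golgi, changed by -0.55 and -0.16, and the difference passed (-0.39 ± 0.09 (SE), adjusted p = 0.00187). USP42, a p53 deubiquitinase, changed by -0.61 and -0.25. USP32, a Golgi and endosome enzyme, changed by -0.33 and -0.45, and its SCC15 call was lost when any 1 DMSO library of that line was left out.

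The study's own list of USP genes linked to EZH2 or MYC and changed in both lines holds 16 of these 17 genes, USP15 being the exception. In each line 7 of the 16 were higher and 9 lower, with medians of -0.44 in SCC15 and -0.20 in SCC25. The study chose that list on these samples, so the counts are not independent evidence of its direction. Of 4 members known from textbooks to stabilise MYC, USP22, USP28 and USP37 fell in both lines, beside 18.6% of all genes lower in both. USP36 rose in both, beside 22.1% higher in both. At equal library totals USP36 stayed above 0, at 0.42 in SCC15, where it no longer passed, and 0.21 in SCC25. That scaling lowers the ACGs values, so the falls kept their sign by construction. The 4 were listed with earlier results of these data known.

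The lines differed in their response for 25 of the 45 members (limma contrast of the fold changes), beside 52.2% of the 14454 genes tested, with SCC15 above SCC25 for 8 and below for 17, beside 26.1% and 26%. Opposite calls in the lines were made for 6 members, beside 10.1% of genes: USP39 rose in SCC15 and fell in SCC25, and USP1, USP9X, USP38, USP43 and USP46 did the reverse. Without SCC15 ACGs replicate 3, 10 members had opposite calls, beside 15% of genes, and without SCC25 DMSO replicate 3, 3 had them, beside 9.36%. At equal library totals 3 members were opposite, beside 10.8%: USP38 and USP43 kept their calls, USP14 joined them, and the SCC25 rises of USP1 and USP46 and the SCC15 rise of USP39 no longer passed, while USP9X in SCC25 passed as a fall (-0.09, limma adjusted p = 0.0419).

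USP43 had the largest difference of the family (-1.65 ± 0.14 (SE), adjusted p = 1.56e-06). It had 112, 123 and 113 with DMSO and 74.2, 75.2 and 67.2 with ACGs in SCC15, and 284, 283 and 274 with DMSO and 552, 509.5 and 607 with ACGs in SCC25, so that the groups were separated in opposite directions. USP13, a relative of USP5 that acts in autophagy, came next (-1.52 ± 0.15 (SE), adjusted p = 4.1e-06). In SCC15 it had 577, 525 and 553 with DMSO and 176, 230.3 and 183 with ACGs (log2 fold change -1.49 ± 0.13 (SE), adjusted p = 9.44e-05), while in SCC25 its libraries overlapped, with 533, 550.5 and 595 with DMSO and 572, 610.4 and 532 with ACGs (log2 fold change 0.03 ± 0.07 (SE), adjusted p = 0.72).

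USP38 had 578, 545 and 546 with DMSO and 325, 381 and 358 with ACGs in SCC15, and 442, 462 and 446 with DMSO and 550.3, 601 and 591 with ACGs in SCC25, with no overlap in either line (difference -1.02 ± 0.11 (SE), adjusted p = 1.2e-05). USP46, a partner of UAF1, had 260.2, 270.4 and 302 with DMSO and 156, 187 and 141 with ACGs in SCC15, and 684, 628 and 622 with DMSO and 859, 740.4 and 655 with ACGs in SCC25, where its call (adjusted p = 0.0441) was lost on leaving out any 1 of 4 libraries and its value was 0.11 without ACGs replicate 1. USP9X, a large X-linked enzyme that protects MCL1 and SMAD4, had 8308, 8462 and 8575 with DMSO and 6221, 5853 and 4062 with ACGs in SCC15, and 3835, 3938 and 3866 with DMSO and 4135, 4255 and 4218 with ACGs in SCC25. Its fold change of 0.12 ± 0.04 (SE) in SCC25 was small beside -0.68 ± 0.16 in SCC15, and its SCC25 call was lost without DMSO replicate 1 or DMSO replicate 3.

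USP1, which acts on FANCD2 and PCNA in DNA repair, had 2001, 2222 and 2099 with DMSO and 1375, 1420.3 and 1709.6 with ACGs in SCC15, and 1514, 1526 and 1559.7 with DMSO and 1956, 1941 and 1586 with ACGs in SCC25 (difference -0.74 ± 0.14 (SE), adjusted p = 0.00066). USP39, a spliceosome protein that lacks a working catalytic site, had 699, 737 and 676 with DMSO and 884, 932 and 1023 with ACGs in SCC15, and 1004, 968 and 958 with DMSO and 840.1, 909.9 and 893 with ACGs in SCC25 (difference 0.57 ± 0.10 (SE), adjusted p = 0.000518). Its SCC25 call was lost with DESeq2 and on leaving out any 1 of 4 libraries.

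Members past the threshold in 1 line and with a difference past it as well were USP4, USP5, USP7, USP14, USP19, USP21, USP40, USP47, USP54, USP6NL and USP13. USP19, a membrane-anchored enzyme of the endoplasmic reticulum, had 1803, 1687 and 1672 with DMSO and 1714, 1674 and 1494 with ACGs in SCC15 and 834, 787 and 797 with DMSO and 391, 385 and 429.6 with ACGs in SCC25, a fold change of -0.08 ± 0.09 (SE) that did not pass against one of -1.003 ± 0.07 that did. USP4 showed the reverse, with 915, 922 and 911 with DMSO and 1629.8, 1716 and 1611 with ACGs in SCC15 (log2 fold change 0.85 ± 0.08 (SE), adjusted p = 0.000113), and 401, 378 and 359 with DMSO and 367, 349 and 435 with ACGs in SCC25 (log2 fold change 0.01 ± 0.09 (SE), adjusted p = 0.912). USP54 has long been annotated as lacking catalytic activity. Its SCC15 ACGs libraries spread from 335 to 714 normalized counts, it did not pass in SCC15 by limma with all libraries but did by DESeq2 and, at 0.92, by limma without ACGs replicate 3, and its SCC25 value was -0.46 ± 0.07 (SE).

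Role groups below are small and were listed with earlier results of these data known. Their counts stand beside 30.9% and 30% of all genes higher and lower in SCC15 and 38.3% and 38.5% in SCC25. By role, the group of free ubiquitin and the proteasome holds USP5, USP13 and USP14. Of these, only USP13, described above, passed in SCC15, where it was lower, and in SCC25 USP14 was higher and USP5 lower. USP14, which is bound to the proteasome and trims chains there, had 1931, 1866 and 1917 with DMSO and 3455, 3331 and 3127 with ACGs in SCC25 (log2 fold change 0.79 ± 0.05 (SE), adjusted p = 8.66e-09). In SCC15 it had 2075, 2259.6 and 2079 with DMSO and 2085, 2080.3 and 2603 with ACGs and did not pass (log2 fold change 0.07 ± 0.11 (SE), adjusted p = 0.6), and the difference passed (-0.72 ± 0.12 (SE), adjusted p = 0.000324). USP5, which recycles unanchored ubiquitin chains, had 2019.6, 1902 and 2015 with DMSO and 1313, 1302 and 1180.1 with ACGs in SCC25 (log2 fold change -0.65 ± 0.05 (SE), adjusted p = 2.5e-07), and 1607, 1569 and 1659 with DMSO and 1610.1, 1558 and 1864 with ACGs in SCC15 (log2 fold change 0.05 ± 0.09 (SE), adjusted p = 0.642).

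Of 8 enzymes of histones H2A and H2B, 7 were tested in SCC15. USP3, USP16 and USP21 were higher there, and USP22 and its relatives USP27X and USP51 were lower, while USP49 did not pass. USP51 had 29.0, 38.0 and 41.0 with DMSO and 3.48, 6.84 and 3.73 with ACGs in SCC15 (log2 fold change -2.74 ± 0.35 (SE), adjusted p = 0.000521), the largest fitted fall in the family, at a level of at most 6 reads in an ACGs library. In SCC25 its mean lay under the minimum, with 4.03, 9.89 and 10.6 with DMSO and 1.27, 4.16 and 3.33 with ACGs. Of the 6 tested in SCC25, USP3 and USP16 were higher and USP22, USP27X and USP49 lower, and USP21 had a log2 fold change of 0.11 ± 0.06 (SE) that did not pass. USP49 in SCC15 rested on 1 library, with 270.4, 284 and 263 with DMSO and 269, 253 and 75.9 with ACGs.

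The 3 partners of UAF1 split in SCC15, where USP12 was higher and USP1 and USP46 were lower, and were all higher in SCC25, at 0.25, 1.49 and 0.21 for USP1, USP12 and USP46, of which USP12 alone passed at equal library totals. Of 6 enzymes of the endoplasmic reticulum and mitochondria, USP25 was higher and USP33 lower in SCC15, and USP25 was higher and USP19 and USP33 lower in SCC25, where the value of USP25 was -0.004 at equal library totals. USP30, the deubiquitinase of the outer mitochondrial membrane that opposes PINK1 and parkin, had 401, 397 and 371 with DMSO and 332, 332 and 384 with ACGs in SCC15 (log2 fold change -0.16 ± 0.10 (SE), adjusted p = 0.21), and 372, 323 and 283 with DMSO and 334, 305 and 336 with ACGs in SCC25 (log2 fold change 0.003 ± 0.10 (SE), adjusted p = 0.981). Its ACGs and DMSO libraries overlapped in both lines.

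Among enzymes of endosomes and Golgi, all 4 tested in SCC15 (USP6, USP8, USP10 and USP32) were lower. The share lower there was 42.6% in the family and 30% over all genes. In SCC25 USP8 and USP32 of the 3 tested were lower, beside 38.5% of all genes. Of the SCC15 calls, that of USP32 was lost on leaving out any 1 DMSO library. USP10, which binds the stress granule proteins G3BP1 and G3BP2 and acts on p53, had 3212, 3227 and 3348 with DMSO and 2908, 2801 and 2777 with ACGs in SCC15. At -0.21 ± 0.08 (SE, adjusted p = 0.0481), the call was lost on leaving out any 1 of 5 libraries. USP6, a hominoid gene related to USP32, was low at 15.4, 18.2 and 23.6 with DMSO and 8.11, 10.3 and 1.24 with ACGs in SCC15. Its adjusted p was 0.0487, the call was lost with a pseudocount of 0.1, with all genes above 0 tested, with the replicate number as a block and on leaving out any 1 DMSO library, and its fold change went from -1.69 to -0.96 without ACGs replicate 3.

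Of 8 members tied to p53 or DNA damage, 3 were lower in SCC15 (USP10, USP28 and USP42) and the other 5 did not pass, whereas 3 were higher and 3 lower in SCC25 (USP7, USP24 and USP47, against USP11, USP28 and USP42). USP7, which acts on both MDM2 and p53, had 1995, 2008 and 2061 with DMSO and 1889, 1665 and 1376 with ACGs in SCC15 (log2 fold change -0.31 ± 0.12 (SE), adjusted p = 0.0578), and 2278, 2237 and 2225 with DMSO and 2734, 2592 and 2682 with ACGs in SCC25 (log2 fold change 0.25 ± 0.04 (SE), adjusted p = 0.000156). The difference passed (-0.56 ± 0.13 (SE), adjusted p = 0.00321). Without SCC15 ACGs replicate 3, USP7, USP24 and USP47 in SCC15 also passed, at -0.19, -0.13 and -0.16. USP47 passed there by edgeR and DESeq2 as well. USP7 passed there as lower by edgeR, with TMM factors (-0.35) and without ACGs replicate 1. The SCC25 call of USP24 was lost with edgeR, DESeq2 and the replicate block and on leaving out any 1 of 4 libraries. In SCC25 the rises of USP24 and USP47 turned to -0.09 and -0.01 at equal library totals.

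USP11, a nuclear enzyme of the same subfamily as USP4 and USP15, was lower in SCC25 (log2 fold change -0.34 ± 0.08 (SE), adjusted p = 0.00188) and did not pass in SCC15 (log2 fold change -0.12 ± 0.08 (SE), adjusted p = 0.204), except without ACGs replicate 3, at -0.11 (limma adjusted p = 0.0421). USP18, which removes the ubiquitin-like protein ISG15 and is induced by interferon, was lower in SCC25 (log2 fold change -0.68 ± 0.11 (SE), adjusted p = 8.07e-05). In SCC15 it had 481, 457 and 476 with DMSO and 354, 367 and 496 with ACGs, with ACGs replicate 3 above every DMSO library. It passed there without that replicate, at -0.39.

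USP2, USP20, USP30, USP35 and USP48 passed in neither line. USP20, which acts on receptors and HIF1A, had log2 fold changes of 0.06 ± 0.09 and 0.06 ± 0.06 (SE). USP2, a gene controlled by the circadian clock, was low, at 23.9, 22.9 and 28.8 with DMSO and 22.0, 11.4 and 17.4 with ACGs in SCC15 and 24.2, 20.7 and 30.1 with DMSO and 40.7, 21.8 and 28.9 with ACGs in SCC25, so that a change of its size could not be told from the spread. USP48, which can act on NF-kappaB, had 0.21 ± 0.09 and -0.04 ± 0.06 (SE), and USP35 had -0.17 ± 0.13 and -0.09 ± 0.10. Without 1 library some of these passed, USP48 at 0.28 and USP30 at -0.23 without SCC15 ACGs replicate 3, and USP35 at -0.22 without SCC25 ACGs replicate 3.

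Among the members that passed in 1 line, USP21, a nuclear enzyme of histone H2A, had 597, 543 and 570.0 with DMSO and 879.8, 846 and 765 with ACGs in SCC15 (log2 fold change 0.54 ± 0.09 (SE), adjusted p = 0.00194). USP40 had 742, 714 and 746 with DMSO and 503, 499 and 455 with ACGs there (log2 fold change -0.59 ± 0.09 (SE), adjusted p = 0.000918), and its SCC25 libraries overlapped, from 850.4 to 918 normalized counts with ACGs and from 882 to 907 with DMSO. USP6NL, the Rab regulator, was lower in SCC15 (log2 fold change -0.40 ± 0.11 (SE), adjusted p = 0.0145) and had 0.21 ± 0.10 (SE) in SCC25. USP53, which takes part in tight junctions, was higher in SCC25 (log2 fold change 0.35 ± 0.07 (SE), adjusted p = 0.000438). In SCC15 its ACGs replicate 3 lay among the DMSO libraries, and without that library it passed at 0.46. USP47, which acts in base excision repair, and USP24 were higher in SCC25 by 0.19 and 0.12 by the authors' scaling, the smallest called rises there together with USP9X at 0.12.

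Several USP genes come in pairs of close relatives. Of 25 pairs written down, 17 had both genes tested in both lines, and these were compared side by side without a test. Of all tested members, 23.4% were higher and 42.6% lower in SCC15, and 40% and 35.6% in SCC25. Pairs of unrelated members were not counted, so the counts below show nothing particular to relatives. Opposite calls within a pair were made for 4 pairs in SCC15 and 5 in SCC25, and for 2 pairs in both lines: USP25 was higher where USP28 was lower, and USP36 was higher where USP42 was lower. The same call in both lines was made for 2 pairs, USP16 with USP45 (higher) and USP22 with USP27X (lower). USP12 and USP46, closely related partners of UAF1, had opposite calls in SCC15 and the same call in SCC25. USP31 and USP43 followed the same pattern. At equal library totals both genes of a pair moved down by nearly the same amount. USP25 then passed in neither line (0.01 in SCC15 and -0.004 in SCC25). USP36 passed in SCC25 (0.21) but not in SCC15 (0.42). On that scale neither USP25 with USP28 nor USP36 with USP42 had opposite calls in both lines.

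**Figure D4:**
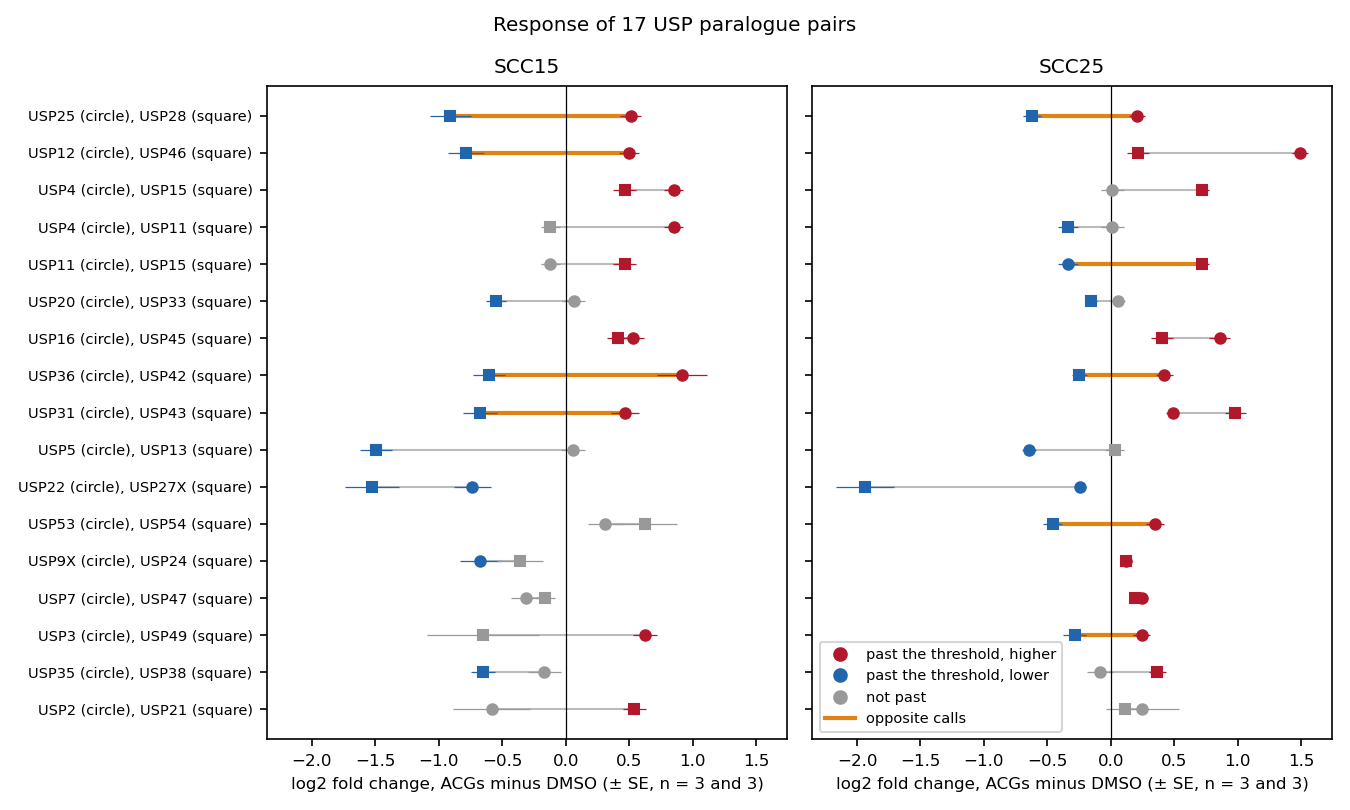
Log2 fold change (ACGs minus DMSO, mean ± SE, 3 against 3 libraries) of both genes of 17 USP paralogue pairs in SCC15 and SCC25, with the first gene as a circle and the second as a square, red for higher, blue for lower and grey for not past the threshold. Orange lines mark opposite calls under the authors' scaling. Among them are USP25 with USP28 (0.51 and -0.91 in SCC15, 0.20 and -0.62 in SCC25) and USP36 with USP42 (0.92 and -0.61, 0.42 and -0.25).

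The sequences upstream of 2 such pairs of related proteins are shown, USP12 with USP46 and USP25 with USP28. By the authors' scaling USP12 and USP46 had opposite calls in SCC15 alone, and USP25 and USP28 in both lines. At equal library totals USP12 in SCC15 (0.002) and USP25 in both lines no longer passed. They are reference bases from RefSeq (GRCh38.p14), read along the gene's strand and ending just before the earlier of the RefSeq start and the start in the deposited tables. Capitals mark GC boxes (GGGCGG, either strand) and, in USP28 alone of these 4, an E-box (CACGTG, the sequence bound by MYC and MAX). USP12 is at chr13:27171897-27172061, minus strand, with 4 GC boxes. USP46 is at chr4:52659336-52659551, minus strand, with 3. USP25 is at chr21:15729732-15729981, plus strand, with 8. USP28 is at chr11:113875573-113875822, minus strand, with 5 and the E-box.
USP12: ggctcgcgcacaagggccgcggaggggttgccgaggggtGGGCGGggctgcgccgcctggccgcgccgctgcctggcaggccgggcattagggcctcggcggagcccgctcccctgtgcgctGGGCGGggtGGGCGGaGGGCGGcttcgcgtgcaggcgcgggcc
USP46: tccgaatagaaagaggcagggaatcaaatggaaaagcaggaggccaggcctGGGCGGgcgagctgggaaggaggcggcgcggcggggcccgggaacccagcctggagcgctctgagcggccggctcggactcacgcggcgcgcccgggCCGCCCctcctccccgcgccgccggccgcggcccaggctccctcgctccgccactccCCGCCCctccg
USP25: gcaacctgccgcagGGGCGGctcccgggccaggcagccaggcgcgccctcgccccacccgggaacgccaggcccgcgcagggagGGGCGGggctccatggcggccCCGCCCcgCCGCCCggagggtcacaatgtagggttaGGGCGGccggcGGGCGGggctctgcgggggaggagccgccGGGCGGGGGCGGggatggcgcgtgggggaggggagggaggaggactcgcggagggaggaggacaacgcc
USP28: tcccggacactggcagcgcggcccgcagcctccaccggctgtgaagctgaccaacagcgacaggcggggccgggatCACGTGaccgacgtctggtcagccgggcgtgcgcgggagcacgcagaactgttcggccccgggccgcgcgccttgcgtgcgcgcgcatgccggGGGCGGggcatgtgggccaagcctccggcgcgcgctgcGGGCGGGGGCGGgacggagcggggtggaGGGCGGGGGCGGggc
These windows are 76.4% to 81.8% G and C.

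Promoter windows of 300 bases (250 before and 50 after the start) were found for 39 of the 54 members. GGGCGG occurred on either strand in 32 of the 39 (82.1%), beside 71.4% of 9581 promoters of protein-coding genes tested in both lines and 44.6% of all 27305 promoters. CACGTG occurred in 3 (USP28, USP32 and USP6NL), or 7.69% beside 10.2% and 7.43%. CCAAT occurred in 11 (28.2%), beside 36.7% and 35.7%, and in none of the 7 higher and 7 lower genes of the shared set that had a window. TGATGNAA, a motif of the stress factor ATF4, occurred in 1 of the 39, or 2.56% beside 1.52% and 3.67%. This was USP50, which was under the minimum in SCC15 and not listed for SCC25. Both strands were searched, overlapping matches were each counted, and a match of letters describes the window only.

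The members lie on 19 chromosomes, 5 of them on X, and span 1.6 to 283.3 kb, with a median of 64.4 kb. Spearman's rho between span and log2 fold change, as a description across genes that share libraries, was -0.01 over 47 members in SCC15 and 0.13 over 45 in SCC25, and -0.21 and -0.01 over all protein-coding genes tested. Members were also grouped by span, under 50 kb, 50 to 100 kb and over 100 kb. In SCC15 these groups of 15, 18 and 14 members had median log2 fold changes of -0.17, -0.26 and -0.35. All protein-coding genes tested there had 0.15, -0.12 and -0.24. In SCC25 the groups of 14, 17 and 14 members had -0.12, 0.21 and 0.07, beside -0.01, 0.03 and -0.05. Whether span accounts for the SCC15 median was not tested. USP34, the longest, and USP27X, among the shortest, both fell in both lines.

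In DMSO, USP10 stood highest of the family in SCC15 by RPKM (reads per kb of exon, scaled to the reads of the library), at 41.5 ± 1.03 (SD, n = 3), followed by USP9X at 38.2 ± 0.66, USP1 at 35.1 ± 1.82 and USP22 at 32.3 ± 0.61. In SCC25, USP5 led at 29.1 ± 0.97, followed by USP10 at 26.9 ± 0.38, USP22 at 26.7 ± 0.86 and USP1 at 21.7 ± 0.38. USP10 and USP22 in SCC25 lay within their spread of each other. With ACGs, USP10 remained first in SCC15 at 25.6 ± 2.998, and in SCC25 USP14 at 26.1 ± 1.13 and USP12 at 25.1 ± 2.17 came first, from ranks 5 and 10. The spread of USP14 and USP12 overlapped. This scale divides by the library's reads and so follows the equal-total scaling, on which USP12 in SCC15 went from 12.1 ± 0.11 to 12.2 ± 1.32. Levels are ordered within a line, since the tables were normalized separately.

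**Figure D5:**
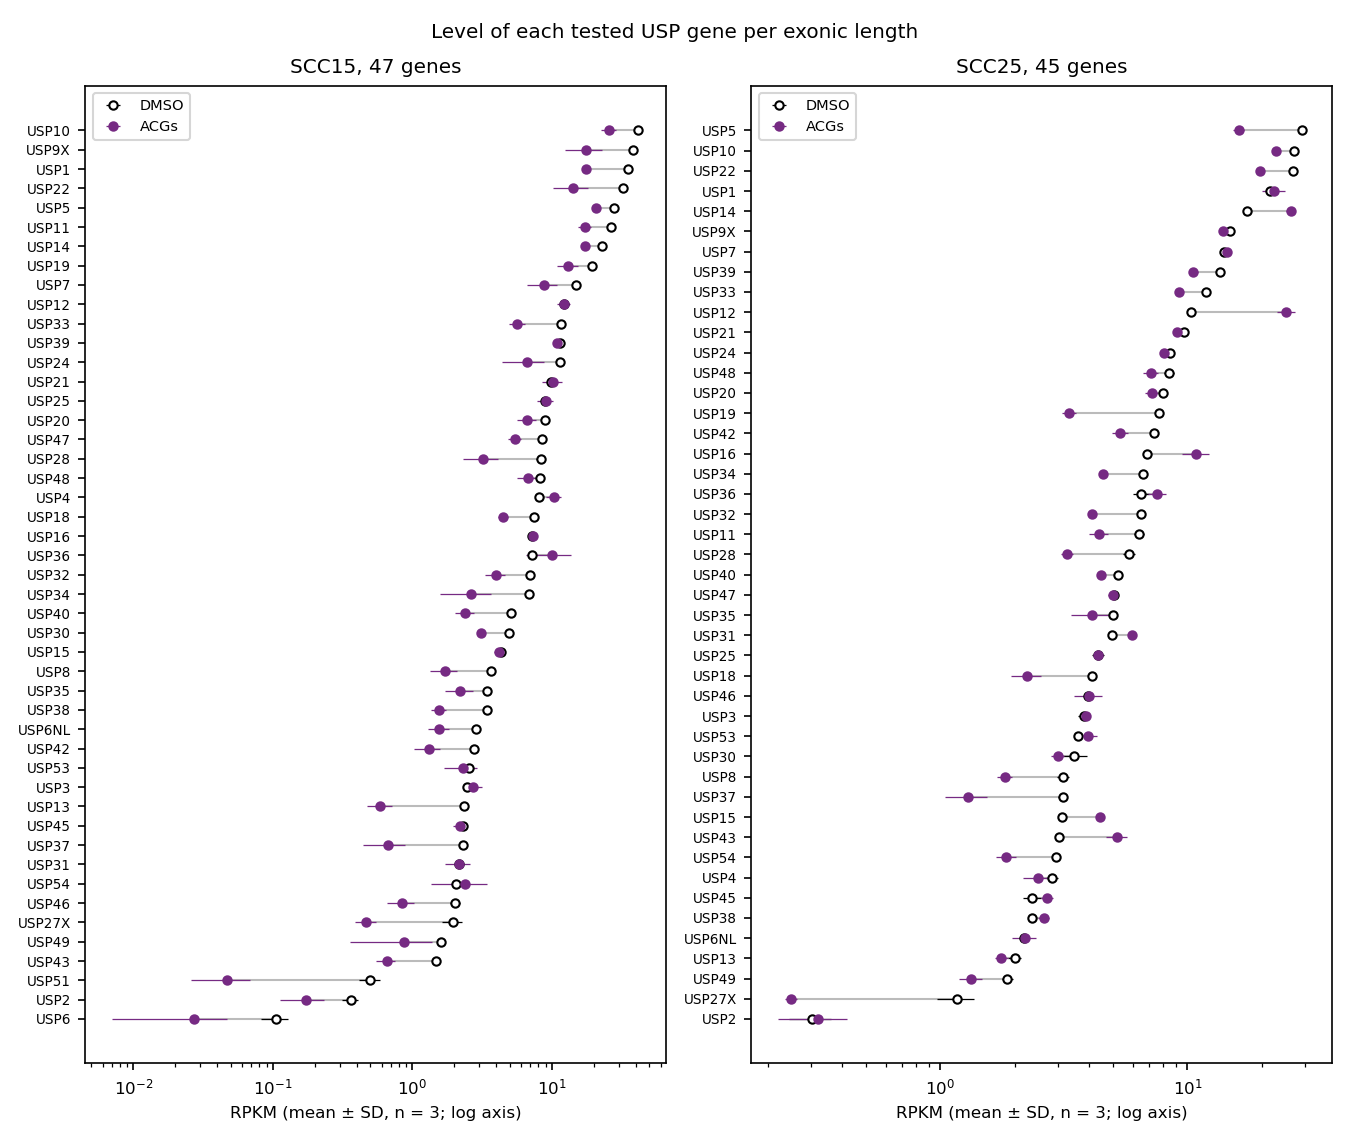
RPKM (reads per kb of exon scaled to the library's reads, log axis, mean ± SD over 3 libraries) of the tested USP genes in DMSO (open) and ACGs (filled), ordered by the DMSO level in SCC15 (47 genes, led by USP10 at 41.5) and SCC25 (45 genes, led by USP5 at 29.1). USP12 moves from rank 10 to rank 2 in SCC25, and USP2 and USP6 lie at the bottom of SCC15.

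Reads of some members may not be told from those of their neighbours or copies. Of the 54, 33 overlap a gene on the other strand and 8 one on the same strand by their whole spans, introns included. Overlap of exons was not determined, and whether reads were counted by strand is not given in the sources used here. USP3 overlaps USP3-AS1, which went from 14.0 ± 3.22 to 78.2 ± 36.2 normalized counts (SD) in SCC15 and from 21.3 ± 2.61 to 77.1 ± 7.004 in SCC25, so both members of that locus were higher. Over 10% of the 50-base stretches of USP17L1, USP41, USP17L2, USP17L7, USP32, USP18 and USP6 also occur in transcripts of other genes named USP, 18.1% for USP32 and 11.6% for USP18, whose values are therefore uncertain. For 46 of the 54 the share was under 1%, and USP12 lay between, at 6.09%.

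Members under the minimum had at most 12 reads in any library. In SCC15 these were USP17L2, USP17L7, USP26, USP41, USP44 and USP50. USP17L2 and USP17L7, of a multicopy family, had 4.26, 3.16 and 3.49, and 2.56, 2.37 and 3.49 normalized counts with DMSO, and 0 in all 3 ACGs libraries, which allows up to 3 reads in each. In SCC25 they were USP6, USP17L1, USP17L7, USP41, USP44 and USP51. USP26, a gene of the testis, was listed in SCC15 with 1.75 in 1 library.

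Of 7 tested partners of USPs, ENY2 of the SAGA module was higher in both lines (0.99 and 1.44), and ATXN7L3 of the same module was lower in SCC25 (-0.15) and did not pass in SCC15 (-0.15). GMPS, a partner of USP7, was lower in SCC25 (-0.54) and did not pass in SCC15 (-0.11), while WDR20, the activator of USP12 and USP46, was lower in SCC15 and higher in SCC25 (-0.40 and 0.55). The same split was seen for G3BP1 and G3BP2, partners of USP10. WDR48, which encodes UAF1, passed in neither line (0.09 and 0.09).

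Among deubiquitinases that are not USPs by name, 17 of 35 tested were higher and 10 lower in SCC15, beside 30.9% and 30% of genes. In SCC25, 20 of 34 were higher and 7 lower, beside 38.3% and 38.5%. The medians were 0.28 in SCC15 and 0.39 in SCC25, beside -0.23 and 0.03 for the USP genes and 0.01 and -0.01 for all genes. At equal library totals 10 of the 17 kept a value above 0 in SCC15. The medians were then -0.21 and 0.18, beside -0.73 and -0.18 for the USP genes and -0.50 and -0.23 for all genes. Of the 33 tested in both lines, 12 were higher and 4 lower in both, beside 22.1% and 18.6% of all genes. CYLD, a USP-fold enzyme that acts on linear chains in NF-kappaB signalling, moved by 0.48 and 1.35, and YOD1, an OTU-family enzyme, by 0.79 and 2.05. At equal library totals CYLD turned to -0.02 in SCC15 and had 1.14 in SCC25, and YOD1 had 0.29 and 1.85. OTUB2, of the same family as YOD1, was lower in both, at -1.75 and -3.99. The difference between USP genes and these families was not tested.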

How the data were processed

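Total RNA of 12 libraries (4 groups of 3) was sequenced. The authors aligned reads with HISAT2 2.0.5 to GRCh38, counted them per gene with featureCounts 1.5.0-p3 (submitters' processing notes) and deposited 1 table per line whose values are a signal, each gene's reads over a size factor set for the library. SCC25 columns are labelled as FPKM but hold this signal as well. Every value came out as a whole number of reads (tolerance 0.05) once the factor was undone. The tables also hold the authors' group means, fold changes and p-values, which were not used.

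The rule for members was applied to both tables. Genes with a mean of at least 10 were tested with limma 3.58.1 (R 4.3.3, trended empirical Bayes, log2(value + 1), Benjamini-Hochberg over all genes of the line). The line difference was a contrast of 4 group means. Tables were normalized separately, so lines were compared by fold change only. edgeR 4.0.16 and DESeq2 1.42.0 on recovered reads, other pseudocounts, filters and scalings, a replicate block and leave-one-out fits were alternatives, and code was tested on simulated data. RPKM used exonic lengths from GENCODE release 44. Members, role lists and relative pairs were chosen with earlier results of these data known. Values were written out for members of the study's list and the role lists, those called in both lines or differing between lines, and the 5 largest rises and falls per line among members with a mean of at least 100. Counting error falls with depth, and the depth per library is given with the results.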

Additional observations from a re-analysis of the deposited data

Results flagged for a closer look

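The 2 lines responded differently, by the limma contrast of their fold changes with an adjusted p under the threshold of 0.05, in 25 of the 45 USP genes tested in both. Values are differences of log2 fold changes, SCC15 minus SCC25, with 3 libraries in each of the 4 groups. Above 0 were USP54 (1.08), USP19 (0.92), USP4 (0.84), USP5 (0.70), USP39 (0.57), USP21 (0.43), USP3 (0.38) and USP25 (0.31). At equal library totals, USP54, USP21, USP3 and USP25 of these no longer passed.

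Below 0 with the largest sizes were USP43 (-1.65), USP13 (-1.52), USP38 (-1.02), USP46 (-0.999), USP12 (-0.99), USP9X (-0.79), USP1 (-0.74), USP14 (-0.72) and USP34 (-0.65). Smaller differences below 0 were those of USP6NL (-0.61), USP40 (-0.57), USP7 (-0.56), USP22 (-0.50), USP33 (-0.39), USP42 (-0.36), USP47 (-0.35) and USP15 (-0.26). Those of USP15, USP34 and USP42 lay nearest the threshold, with adjusted p = 0.0485, 0.0467 and 0.0462. They were lost in 9 (USP15 and USP34) and 8 (USP42) of the 12 fits that left out 1 library, that of USP34 also with edgeR and DESeq2, and those of USP15, USP25 and USP42 with the replicate number as a block. Without SCC15 ACGs replicate 3 the differences of USP10, USP11, USP16, USP24, USP32, USP36 and USP48 passed as well. Groups of 3 libraries are too small to look for single outlying libraries by a gap rule, so no such rule was applied. SCC15 ACGs replicate 3 was set apart by its counts over all genes, as given above.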

How the results depend on the processing

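Scaling every library to the same total moved the most. Counts of USP genes then were 1 higher and 32 lower in SCC15, 9 higher in SCC25, 0 higher and 19 lower in both lines and 3 with opposite calls, and the medians were -0.729 in SCC15 and -0.178 in SCC25. Signs turned in SCC15 for USP5 (-0.444), USP14 (-0.427), USP15 (-0.0345), USP20 (-0.435), USP31 (-0.0327), USP39 (-0.0719) and USP45 (-0.0822), and in SCC25 for USP9X (-0.0928), USP13 (-0.178), USP20 (-0.152), USP24 (-0.0881), USP25 (-0.0044) and USP47 (-0.014). By construction this setting lowers all ACGs values of a line together, as the libraries' normalized totals differ.

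Asking also for an absolute log2 fold change above 1 left 0 higher and 5 lower in SCC15 (12.6% and 14.6% of all genes), 1 higher and 3 lower in SCC25 (13.9% and 17%), 0 higher and 2 lower in both (5.9% and 6.34%), 0 with opposite calls (0.429%) and 4 that differed between lines (21.5%). Testing all genes above 0 added low members, and the SCC15 median became -0.331. Leaving out 1 library at a time gave 3 (without SCC25 DMSO replicate 3) to 10 (without SCC15 ACGs replicate 3) opposite calls and SCC25 medians of 0.0122 to 0.0765. TMM factors, edgeR, DESeq2, pseudocounts of 0.1 and 10, a minimum of 10 in every library and protein-coding genes alone kept every count within 1.5 times.

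Replicate numbers did not pair the libraries: same-numbered ACGs and DMSO libraries deviated from their group means with correlations of -0.051 to 0.008 across genes. With the number as a block, 11 USP genes were higher and 18 lower in SCC15, 18 and 16 in SCC25, 8 and 9 in both, and 22 differed between lines.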
